A study of Mus musculus with 12 samples.

Results

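The comparison of cortisol with no treatment in co-cultured cells took in the Cy5 channel of 6 of the 12 dual-colour mouse arrays of the study: the 3 arrays titled C100 and the 3 titled NT, taken as pairs at 6, 24 and 48 h. The cells were 3T3-L1, an established mouse pre-adipocyte fibroblast line, grown with the mouse macrophage line RAW264.7 held apart in a porous insert through which soluble factors could pass. The cortisol group (C) received 100 µM cortisol and the NT group received no hormone, and both carried the macrophage inserts. The other 6 arrays held cortisol with serotonin (CS, 100 µM of each) and serotonin (S, 100 µM) at the same times. In the Cy3 channel every array carried 3T3-L1 cells grown alone with the same treatment for the same time. There was 1 array for each condition and time, and the 4 arrays of a time lay on 1 slide, so that time and slide cannot be told apart. A p-value therefore rests on how treatment differences varied over the time points, pooled over all 12 arrays with the S and CS arrays among them. It does not measure the spread over repeat cultures, and 3 pairs alone allow no exact two-sided sign-flip p below 0.25. Dyes were not swapped, so that Cy5 and Cy3 levels cannot be compared directly. A constant dye bias cancels from a cortisol effect within a channel and from the difference of such effects, but one that varies between arrays does not. The deposited signals were also dye-normalized, so that Cy5 values may depend in part on the Cy3 sample.

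Cortisol is a glucocorticoid that crosses the cell membrane and binds the glucocorticoid receptor, which then moves to the nucleus. There the receptor can bind DNA at inverted repeats and raise transcription of nearby genes, or it can hold back transcription driven by factors such as NF-kB and AP-1, which is the classical route to fewer inflammatory chemokines and matrix-degrading proteases. In pre-adipocytes glucocorticoids are also a standard component of the hormone mixtures that start adipose conversion. Unless stated otherwise, values below are log2 Cy5 signals after quantile normalization, each from the brightest probe of the gene. Summed marker signals are not on the log2 scale. Levels are compared between arrays and never between genes.

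The labelled cell type was checked first. Of 14 pre-adipocyte and fibroblast markers, 13 were well above background on all 6 arrays, and the summed signal of 13 of them lay between 409693 and 418246 in cortisol cells and between 399320 and 408196 in NT cells. The 6 markers of mature adipocytes, Adipoq, Cfd, Cidec, Lep, Plin1 and Retn, were each above background on at most 2 of the 6 arrays. Of 19 macrophage markers, 10 were well above background on all 6 arrays (Aif1, Cd14, Cd53, Clec4d, Csf1r, Ctss, Fcer1g, Itgam, Mpeg1 and Mrc1), 4 on 3 to 5 of them (Cybb, Lyz2, Marco and Tyrobp) and 5 on 0 (Adgre1, Fcgr1, Laptm5, Ptprc and Spi1). Between 19912 and 22770 of 39429 probes were well above background on these arrays. The NT array at 6 h correlated least with the other arrays of its time (median r = 0.980, across 12539 genes with values on all 12 arrays). On the single pair of arrays of a time, 14.4% of genes were at least 1.5-fold higher and 5.75% at least 1.5-fold lower at 6 h, 4.95% and 5.83% at 24 h, and 6.92% and 10.6% at 48 h.

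Transcription of 169 genes was higher and that of 141 genes lower in cortisol-treated than in untreated co-cultured cells, out of 13058 genes tested by limma across all 12 arrays with time as a block. These were 1.29% and 1.08% of genes, with an adjusted p under 0.05 and at least a 1.5-fold change, which is what is meant by called. The median change over all genes was -0.01 on the log2 scale. The fitted changes reached 5.49 for Ear1, which was not above background in NT cells, and -2.74 for Mmp10, and the median size was 0.91 among the raised genes and 0.82 among the lowered ones. Of the raised genes, 10 were not well above background on any NT array. They were tested because their cortisol arrays alone met the detection filter. All 141 lowered genes and 165 of the 169 raised genes moved the same way in 3 of 3 time pairs, and the other 4 lacked a value in a pair. Of all 13058 genes, 2186 were higher and 2627 lower in 3 of 3 pairs. The calls were made from these same pairs, so that the agreement is no separate support. The counts rest on the arrays used: there were 44 higher and 29 lower on the 6 cortisol and NT arrays alone, 27 and 16 without 3 arrays whose Cy3 labels are in doubt, described with the cells grown alone, 0 and 0 without the 24 h arrays and 3 and 0 without time as a block. Leaving out 1 array gave 84 higher and 91 lower without C at 6 h, 48 and 32 without C at 24 h, 57 and 40 without C at 48 h, 115 and 117 without NT at 6 h, 118 and 75 without NT at 24 h, and 209 and 139 without NT at 48 h. All 310 genes kept their direction in each of these refits. Of the 62 called genes named here, 16 stayed called whichever of the 6 arrays was left out: Ear1, Ear2, Tnfsf11, Zbtb16, Mmp10, Ccl3, Prss46, Timp3, Cyth4, Slc10a6, Map3k6, Dusp1, Adamts1, Klf9, Hgf and Grem1. The other 46 lost the call without at least 1 array, most often without C at 24 h, where 19 of the 62 stayed called. Among the 16, the calls of Ear1 and Tnfsf11 rest on NT signals not well above background.

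**Figure D1:**
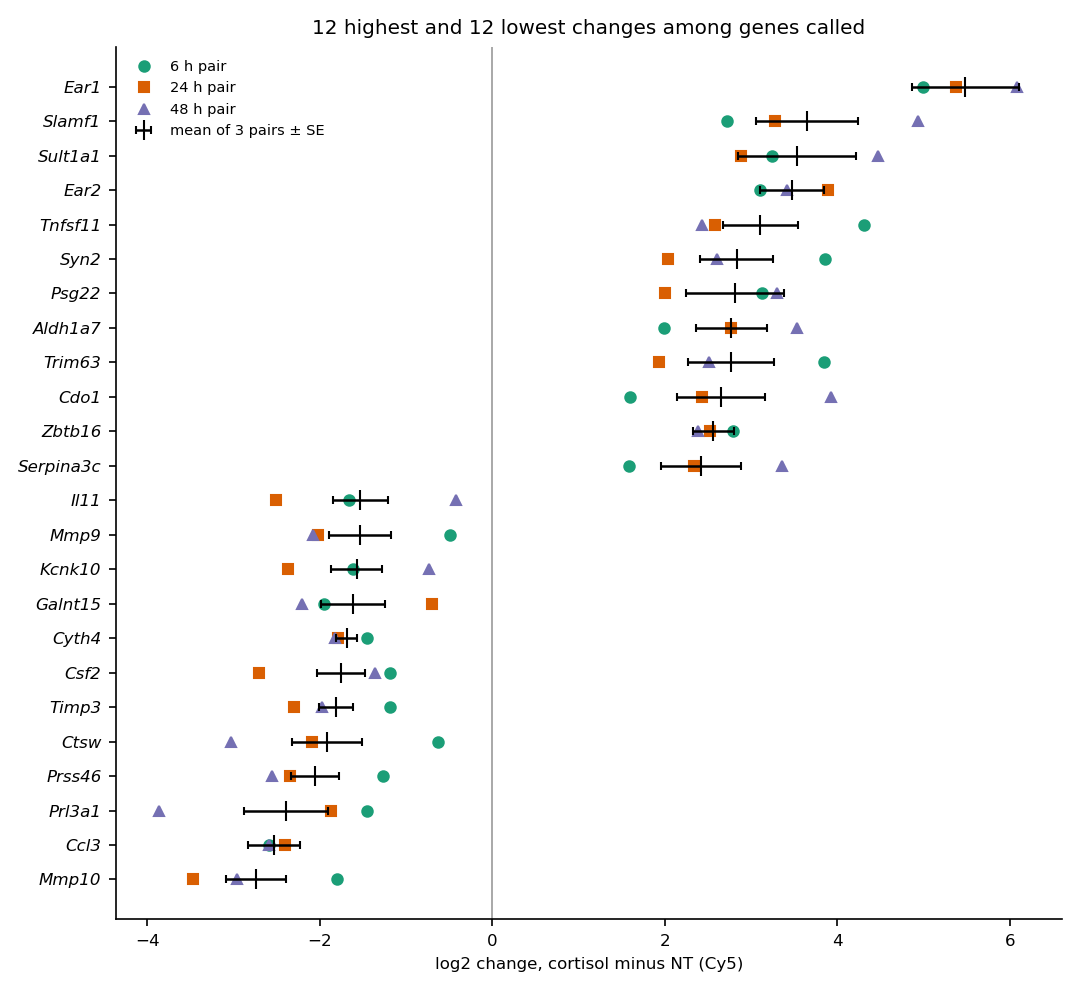
Log2 change in Cy5 signal, cortisol minus NT (horizontal axis), of the 12 highest and 12 lowest genes among those called, with a point for each time pair and a bar for the mean of 3 pairs ± SE. The raised genes run from Ear1 (5.49) to Serpina3c (2.42) with all points above 0, and the lowered genes have all points below 0, with Mmp10 (-2.74) the lowest. Ear1, Slamf1, Sult1a1, Tnfsf11 and Psg22 were not well above background in NT cells, so that their plotted changes are no measured folds.

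Several genes known to be induced by glucocorticoids rose. Of 42 such genes tested, 12 were called higher (28.6%, against 1.29% of all genes) and 1, Cgref1 (-0.79, adjusted p = 0.0396), lower. The median change of the list was 0.38 against -0.01 over all genes. Among the 12, Sult1a1 met the detection filter through its cortisol arrays alone, and its call was lost without any 1 of the 6 arrays. This and the other lists were chosen with earlier results of these data known, so that their shares of called genes are no independent test. Zbtb16, a zinc-finger transcription factor, had Cy5 signals of 10.19, 10.02 and 10.29 in cortisol cells at 6, 24 and 48 h, against 7.41, 7.50 and 7.91 in NT cells. The groups did not overlap, and the level was 5.91-fold higher with cortisol (2.56 ± 0.23 SE, adjusted p = 0.00256 by limma). Slc10a6, a transporter of steroid sulfates, was at 12.85, 12.81 and 12.16 in cortisol cells and at 11.72, 11.69 and 10.50 in NT cells, each cortisol array lying above every NT array (1.30 ± 0.15 SE, adjusted p = 0.00348). Klf9, a Krüppel-like factor, stood at 12.53, 12.59 and 12.59 in cortisol cells, against 11.69, 12.08 and 11.61 in NT cells. It rose by 0.78 ± 0.11 (SE, adjusted p = 0.00759), with little variation among the cortisol arrays.

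The other called members of that list, apart from Sult1a1, rose by 0.79 to 2.65 on the log2 scale. Pdk4, the kinase that shuts off pyruvate dehydrogenase, rose by 1.27, Crispld2, a secreted cysteine-rich protein, by 1.27, Map3k6, a stress kinase, by 1.21 and Glul, glutamine synthetase, by 1.05. Tsc22d3, the glucocorticoid-induced leucine zipper protein, had signals of 14.16, 13.95 and 13.45 in cortisol cells, against 12.82, 13.17 and 13.19 in NT cells, and rose by 0.79 ± 0.16 (SE, adjusted p = 0.0247). Its 3 cortisol values all exceeded the NT values, with the smallest gap at 48 h. Per1, a core clock gene, was at 14.97, 14.46 and 15.48 in cortisol cells and at 13.28, 13.67 and 15.25 in NT cells, so that the groups overlapped although each pair rose (0.90 ± 0.21 SE, adjusted p = 0.0452). Dusp1, a phosphatase that inactivates MAP kinases, rose by 0.81 ± 0.12 (SE, adjusted p = 0.00815). Fkbp5, a co-chaperone of the receptor, changed by 0.55 (adjusted p = 0.0223), under the fold threshold. Per2 (1.82, adjusted p = 0.0941) and Mertk (1.70, adjusted p = 0.0656) did not pass the test. The NT signals of Mertk at 6 and 24 h were not well above background. With 1 array left out the adjusted p reached 0.0975 for Tsc22d3, 0.145 for Per1, 0.0777 for Pdk4, 0.0771 for Crispld2, 0.0623 for Glul and 0.174 for Cgref1. Of the 21 genes for cortisol receptors, chaperones and metabolism none was called, and H6pd, an enzyme that supplies reducing power for cortisol regeneration, changed by 0.36 (adjusted p = 0.0391).

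**Figure D2:**
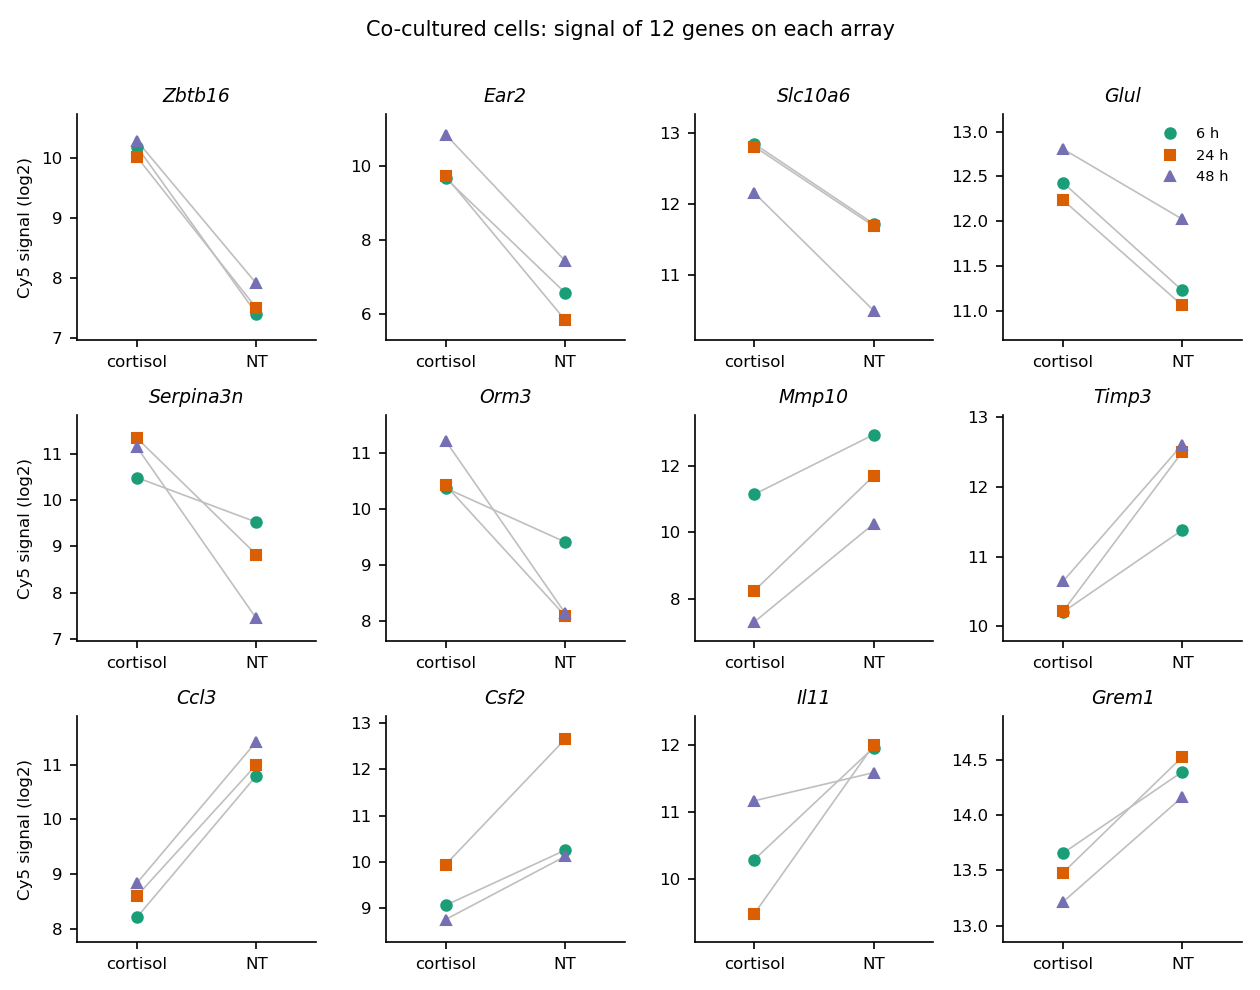
Cy5 signal (log2, vertical axis) of 12 genes on each array, cortisol on the left and NT on the right, with the arrays of a time joined by a line (circles 6 h, squares 24 h, triangles 48 h). All lines fall to the right for Zbtb16, Ear2, Slc10a6, Glul, Serpina3n and Orm3 and rise to the right for Mmp10, Timp3, Ccl3, Csf2, Il11 and Grem1.

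Promoter sequences are shown to place the receptor's pattern in the raised genes. The pattern searched, on both strands, was GNACA followed by 3 bases of any kind and the inverted copy TGTNC, in the RefSeq window from 250 bases before to 50 bases after each start site (GRCm38.p6). A promoter was listed for 126 of the 169 raised genes and 105 of the 141 lowered genes. The pattern was present for 7 of the 126 raised genes (5.56%), Galnt11, Map3k6, Serpina3c, Serpina3n, Slc10a6, Suox and Trim63, and for 0 of the 105 lowered genes, against 47 of 10417 tested genes (0.451%) and 0.475% of all 32851 promoters. A shorter form without the outer bases, ACANNNTGT, which the longer one contains, was present for 15.1% of the raised and 5.71% of the lowered genes, against 5.21% of tested genes and 6.85% of promoters. A match is a run of letters and not a measured binding site, and Serpina3c and Serpina3n are close copies that hold the same letters. The promoters of 4 raised genes described here are printed with the pattern in capitals: Trim63 (chr4:134314870-134315169, plus strand), Slc10a6 (chr5:103629354-103629653, minus strand), Map3k6 (chr4:133240568-133240867, plus strand) and Serpina3n (chr12:104406458-104406757, plus strand).
Trim63: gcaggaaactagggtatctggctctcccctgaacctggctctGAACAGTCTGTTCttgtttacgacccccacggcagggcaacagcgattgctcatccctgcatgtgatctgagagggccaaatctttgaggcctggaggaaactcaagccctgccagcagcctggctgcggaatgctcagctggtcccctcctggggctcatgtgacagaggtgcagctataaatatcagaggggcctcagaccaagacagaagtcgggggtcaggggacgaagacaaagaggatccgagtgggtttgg
Slc10a6: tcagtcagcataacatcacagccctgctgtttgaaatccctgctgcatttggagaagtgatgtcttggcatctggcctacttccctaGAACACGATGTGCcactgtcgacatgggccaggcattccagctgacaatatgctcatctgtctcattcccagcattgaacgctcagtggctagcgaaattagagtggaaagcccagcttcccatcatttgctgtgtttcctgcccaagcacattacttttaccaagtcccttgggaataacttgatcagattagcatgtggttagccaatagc
Map3k6: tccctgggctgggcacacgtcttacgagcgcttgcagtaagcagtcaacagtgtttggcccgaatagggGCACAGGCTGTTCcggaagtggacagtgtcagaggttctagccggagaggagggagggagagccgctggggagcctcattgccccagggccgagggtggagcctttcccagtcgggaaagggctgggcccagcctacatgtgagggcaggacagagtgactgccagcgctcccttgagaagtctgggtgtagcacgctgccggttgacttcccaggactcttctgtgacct
Serpina3n: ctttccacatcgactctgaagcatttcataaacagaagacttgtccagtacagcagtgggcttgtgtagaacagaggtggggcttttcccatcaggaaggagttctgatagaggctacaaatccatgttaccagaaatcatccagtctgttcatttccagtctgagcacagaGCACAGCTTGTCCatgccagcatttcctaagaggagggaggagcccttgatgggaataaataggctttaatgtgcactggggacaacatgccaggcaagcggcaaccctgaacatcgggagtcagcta

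The pattern begins 208 bases before the start site in Trim63, 163 in Slc10a6, 181 in Map3k6 and 78 in Serpina3n. The transcript of Trim63, a ubiquitin ligase of muscle atrophy, had signals of 6.42, 7.46 and 7.42 in cortisol cells, against 2.58, 5.52 and 4.90 in NT cells (2.77 ± 0.50 SE, adjusted p = 0.0184), and was well above background on 3 cortisol arrays and 1 NT array. The change was 2.11 without the NT array at 6 h, where the signal was lowest, and the adjusted p reached 0.0852 with 1 array left out.

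The highest changes outside that list fell on genes of several families. Ear2, an eosinophil-associated ribonuclease, had signals of 9.67, 9.72 and 10.85 in cortisol cells, against 6.57, 5.83 and 7.43 in NT cells, a rise of 11.1-fold (3.47 ± 0.37 SE, adjusted p = 0.00308). Ear1, a close copy that the same probes may record in part, was at 7.78, 7.56 and 8.41 in cortisol cells and not well above background in any NT sample, which gives at least 11.7-fold higher (adjusted p = 0.00348). For a gene not well above background in NT, the fold is bounded by the lowest signal of any probe well above background on each NT array. Such a gene met the detection filter through its cortisol arrays alone. Its adjusted p rests on NT signals not well above background and is no test of the bounded fold. The places of Ear1, Tnfsf11, Sult1a1, Slamf1 and Psg22 among the 12 highest rest on such signals too. Tnfsf11 (RANKL), the cytokine that drives osteoclast formation, was at 7.04, 6.92 and 7.13 in cortisol cells and not well above background in NT cells, at least 5.93-fold higher (adjusted p = 0.00759). Sult1a1, a phenol sulfotransferase on the glucocorticoid list, was at least 4.80-fold higher (adjusted p = 0.0227), Slamf1, a receptor of immune cells, at least 3.10-fold (adjusted p = 0.0121), and Psg22, a pregnancy-specific glycoprotein of a family of close copies, at least 2.35-fold (adjusted p = 0.0272). The call of Sult1a1 was lost without any 1 of the 6 arrays (adjusted p up to 0.111), that of Psg22 without 5 of them (up to 0.13), and that of Slamf1 without C at 24 h or at 48 h (up to 0.085).

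Syn2, a synaptic vesicle protein, had signals of 6.98, 7.09 and 7.09 in cortisol cells, against 3.13, 5.05 and 4.48 in NT cells, of which 1 was well above background (2.83 ± 0.42 SE, adjusted p = 0.00916). Aldh1a7, an aldehyde dehydrogenase close in sequence to Aldh1a1, was at 8.54, 9.07 and 9.29 in cortisol cells and at 6.55, 6.30 and 5.75 in NT cells (2.77 ± 0.41 SE, adjusted p = 0.00914), without overlap. Cdo1, which oxidises cysteine and is on the glucocorticoid list, was at 9.90, 11.80 and 11.57 in cortisol cells, against 8.30, 9.37 and 7.64 in NT cells. Its change was 2.65 ± 0.51 (SE, adjusted p = 0.0224), and the differences within the pairs were 1.60, 2.43 and 3.92. The largest adjusted p with 1 array left out was 0.0506 for Syn2, 0.0555 for Aldh1a7 and 0.107 for Cdo1.

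Some acute phase genes were also raised. Of 19 tested, 4 were called higher (21.1%, against 1.29% of all genes) and 0 lower, with a median change of 0.54. Serpina3n, a secreted inhibitor of serine proteases, had signals of 10.48, 11.34 and 11.14 in cortisol cells, against 9.52, 8.82 and 7.44 in NT cells (2.39 ± 0.54 SE, adjusted p = 0.0391), and the groups did not overlap. Its close relative Serpina3c was at 7.88, 8.69 and 7.85 in cortisol cells and at 6.30, 6.36 and 4.50 in NT cells, of which the 48 h value was not well above background (2.42 ± 0.46 SE, adjusted p = 0.0227, with the difference at 48 h at least 2.94). Orm3, an alpha-1-acid glycoprotein, was at 10.37, 10.42 and 11.21 in cortisol cells, against 9.41, 8.09 and 8.14 in NT cells (2.12 ± 0.40 SE, adjusted p = 0.0223). Steap4, a metalloreductase of inflamed adipose tissue, rose by 1.15 ± 0.18 (SE, adjusted p = 0.0097). The Serpina3 genes, and likewise the Orm genes, are close copies on which a probe may record more than 1 transcript. With 1 array left out the adjusted p reached 0.174 for Serpina3n, 0.109 for Serpina3c, 0.105 for Orm3 and 0.0536 for Steap4.

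The cortisol effect on some of these genes changed with time. A model with a cortisol-by-time term over all 12 arrays, which averages the cortisol effect with and without serotonin, called 10 of 13038 genes for a larger effect at 48 h than at 6 h (0.0767%) and 0 for a smaller one, and 1437 genes had an unadjusted p under 0.05. The 10 were Serpina3k, Serpina3m, Serpina3n, Tnn, Gdpd2, Orm2, Clca3a2, Orm3, Clca3a1 and Cfhr2, and 4 of them were on the acute phase list. In Serpina3n the difference was 0.96, 2.51 and 3.70 between cortisol and NT at 6, 24 and 48 h, and 0.66, 2.02 and 3.70 between CS and S. The effect at 48 h exceeded that at 6 h by 2.89 ± 0.23 SE, adjusted p = 0.00432. In Serpina3k the difference was 0.20, 2.33 and 4.46 between cortisol and NT and 0.09, 2.96 and 5.53 between CS and S (4.85 ± 0.41 SE, adjusted p = 0.00432). Its NT and S signals at 48 h were not well above background, and with them at the lowest signal well above background on those arrays the 48 h differences were at least 3.93 and 3.79, and that between the times at least 3.71. In Orm3 the difference was 0.96, 2.33 and 3.07 between cortisol and NT and 0.96, 1.85 and 3.17 between CS and S (2.16 ± 0.18 SE, adjusted p = 0.00432).

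Of the genes not on the acute phase list, Tnn (tenascin N, a matrix glycoprotein) differed by -0.01, 1.12 and 2.08 between cortisol and NT at the 3 times, and Clca3a1 and Clca3a2, copies of a chloride channel regulator, by 0.75, 2.16 and 2.46 and by 0.71, 2.15 and 2.72. Serpina3m, which is on that list, was at 10.43, 11.51 and 11.02 in cortisol cells and at 9.66, 8.60 and 6.42 in NT cells at 6, 24 and 48 h, and Gdpd2, a glycerophosphodiesterase, was at 10.56, 10.89 and 10.99 in cortisol cells and at 10.34, 9.23 and 8.62 in NT cells. In both genes the NT level was lower at each later time, while the cortisol levels spanned 1.08 (Serpina3m) and 0.43 (Gdpd2). Levels at different times also compare different slides. The methods of the study state that medium and hormones were renewed after 24 h, before the 48 h harvest. Time and this renewal cannot be told apart at 48 h. Called for a larger effect at 48 h were 5 genes without the 3 doubted arrays, 2 without NT at 6 h, 6 without the 24 h arrays and 53 without C at 6 h, and for a smaller one 0, 0, 1 and 7, with 17 without C at 48 h.

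**Figure D3:**
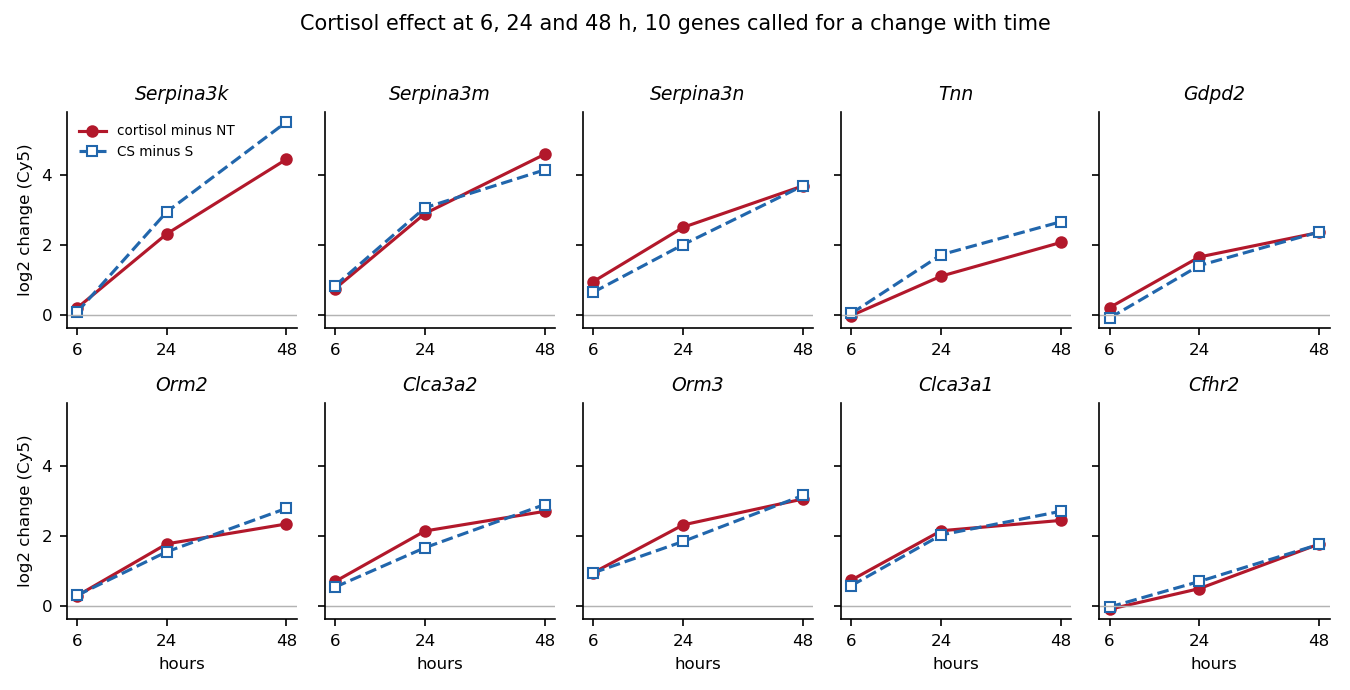
Log2 change in Cy5 signal (vertical axis) at 6, 24 and 48 h for the 10 genes whose cortisol effect was called larger at 48 h than at 6 h, for cortisol minus NT (filled circles, solid line) and for CS minus S (open squares, dashed line), 1 array for each condition and time. In each panel both lines end higher at 48 h than at 6 h, with Serpina3n reaching 3.70 and 3.70 at 48 h and Cfhr2 1.78 and 1.77. Serpina3k at 48 h is plotted against NT and S signals not well above background, so that its values there are no measured differences.

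Several chemokines and cytokines were lowered. Of 26 tested, 5 were called lower (19.2%, against 1.08% of all genes) and 0 higher, and the list's median was -0.38. Ccl3 (MIP-1alpha), a chemokine that draws monocytes, had signals of 8.21, 8.60 and 8.83 in cortisol cells, against 10.80, 11.00 and 11.42 in NT cells. The groups did not overlap, and the level fell by 2.53 on the log2 scale with cortisol (SE 0.30, adjusted p = 0.00439). Csf2 (GM-CSF), a growth factor of granulocytes and macrophages, was at 9.07, 9.95 and 8.76 in cortisol cells and at 10.26, 12.65 and 10.12 in NT cells (-1.75 ± 0.28 SE, adjusted p = 0.0115), with the widest gap at 24 h. Il11, a cytokine of the interleukin-6 family, was at 10.29, 9.49 and 11.17 in cortisol cells, against 11.96, 11.99 and 11.58 in NT cells (-1.53 ± 0.31 SE, adjusted p = 0.0285). Cxcl16, a membrane-bound chemokine, differed by -1.10 (adjusted p = 0.0368), and Ccl5 (RANTES), a T-cell and monocyte chemokine, by -0.69 ± 0.11 (SE, adjusted p = 0.0097). Ccl4 (-1.78, adjusted p = 0.164), a close relative of Ccl3, and Lif (-0.91, adjusted p = 0.0852) did not pass the test. With 1 array left out the adjusted p reached 0.0693 for Csf2, 0.137 for Il11, 0.166 for Cxcl16 and 0.0635 for Ccl5.

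Some markers of macrophages, cells that also make these chemokines, were lower too. Of 14 such markers tested, Csf1r, Mpeg1 and Mrc1 were called lower (21.4%, against 1.08% of all genes) and 0 higher, and the list's median was -0.64. The summed signal of 19 markers was 12573, 9647 and 9501 in cortisol cells at 6, 24 and 48 h, against 14245, 12786 and 11966 in NT cells. The sum was lower with cortisol in 3 of 3 pairs. In cells grown alone, without macrophages, the median change with cortisol was -0.47 over 12 of these markers and -0.81 over 23 of the chemokines and cytokines. Whether RNA of macrophages was mixed in was not tested, and in mixed RNA fewer cells and less RNA per cell cannot be told apart. The part of these markers in the values of the chemokines, of the metalloproteinases and of Cyth4 was not tested. Csf1r, the receptor of macrophage colony-stimulating factor, was at 9.19, 8.66 and 9.71 in cortisol cells, against 10.04, 9.28 and 10.56 in NT cells (-0.78 ± 0.13 SE, adjusted p = 0.014). Mrc1, the mannose receptor, fell by 0.92 (adjusted p = 0.0353) and Mpeg1, a pore-forming protein of macrophages, by 0.65 (adjusted p = 0.0329). These 3 calls were lost without C at 24 h, C at 48 h or NT at 6 h, at adjusted p of up to 0.153.

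Members of the metalloproteinase and inhibitor list also fell, with 5 of 21 called lower (23.8%, against 1.08% of all genes), 1 higher (4.76%, against 1.29%) and a list median of -0.34. Mmp10 (stromelysin-2), a protease that cleaves matrix proteins, had signals of 11.15, 8.24 and 7.29 in cortisol cells, against 12.95, 11.70 and 10.26 in NT cells. The level dropped by 2.74 on the log2 scale with cortisol (SE 0.35, adjusted p = 0.00565) and was lower at each later time in both groups. Timp3, an inhibitor of metalloproteinases bound to the matrix, was at 10.20, 10.21 and 10.64 in cortisol cells and at 11.38, 12.50 and 12.61 in NT cells (-1.81 ± 0.19 SE, adjusted p = 0.00308), without overlap. Mmp9 (gelatinase B) was at 8.31, 7.62 and 7.24 in cortisol cells, against 8.80, 9.64 and 9.32 in NT cells (-1.53 ± 0.36 SE, adjusted p = 0.0452), with the smallest gap at 6 h. Adamts4, an aggrecan-cleaving protease, fell by 1.02 (adjusted p = 0.0383) and Serpinb2, the plasminogen activator inhibitor 2, by 0.80 (adjusted p = 0.0097), whereas Adamts1, a related protease, rose by 0.80 ± 0.10 (SE, adjusted p = 0.00487). Mmp13 (-0.98, adjusted p = 0.061) and Mmp12 (-1.29, adjusted p = 0.203) did not pass. At 48 h Mmp12 was not well above background in either group. With 1 array left out the adjusted p reached 0.198 for Mmp9, 0.169 for Adamts4 and 0.0615 for Serpinb2.

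The promoters of several lowered genes hold the letters of the AP-1 element, and so do those of raised genes. The pattern TGANTCA, searched on both strands, was present for 21 of 105 lowered genes (20%) and for 23 of 126 raised genes (18.3%), against 6.83% of tested genes and 7.81% of promoters. The NF-kB pattern, GGGA and TTTCC with 1 base between, was present for 1 lowered and 2 raised genes, against 0.566% of tested genes and 0.411% of promoters. Mmp10 (chr9:7502092-7502391, plus strand) and Il11 (chr7:4778092-4778391, minus strand) are printed as a protease and a cytokine among the 12 lowest genes, with the AP-1 letters in capitals, which begin 63 and 98 bases before the start site.
Mmp10: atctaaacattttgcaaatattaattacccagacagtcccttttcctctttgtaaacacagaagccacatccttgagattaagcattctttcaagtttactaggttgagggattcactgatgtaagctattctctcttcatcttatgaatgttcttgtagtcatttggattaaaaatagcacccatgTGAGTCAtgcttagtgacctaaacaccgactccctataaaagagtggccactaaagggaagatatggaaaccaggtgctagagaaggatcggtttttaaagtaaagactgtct
Il11: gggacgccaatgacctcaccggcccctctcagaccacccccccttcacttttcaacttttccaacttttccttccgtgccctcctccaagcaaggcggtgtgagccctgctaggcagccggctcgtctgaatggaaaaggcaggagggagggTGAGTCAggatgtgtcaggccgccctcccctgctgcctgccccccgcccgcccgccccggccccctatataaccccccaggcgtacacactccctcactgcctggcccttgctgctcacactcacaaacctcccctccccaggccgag

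Other genes of the lowest 12 came from several families. Prss46, a serine protease, had signals of 8.25, 6.98 and 6.94 in cortisol cells, against 9.52, 9.33 and 9.49 in NT cells (-2.06 ± 0.27 SE, adjusted p = 0.00645). Cyth4, an exchange factor of Arf GTPases found in blood cells, was at 6.89, 6.97 and 7.88 in cortisol cells and at 8.34, 8.77 and 9.70 in NT cells, and its change of -1.69 ± 0.12 (SE) had an adjusted p of 0.000505. Kcnk10, a potassium channel, fell by 1.57 (adjusted p = 0.0224) and Galnt15, an enzyme of O-glycosylation, by 1.61 (adjusted p = 0.0449). Prl3a1, a placental member of the prolactin family of close copies, was at 4.72, 3.82 and 4.69 in cortisol cells, where 1 array was well above background, and at 6.17, 5.68 and 8.55 in NT cells (-2.39 ± 0.49 SE, adjusted p = 0.0284). Ctsw (cathepsin W) fell by 1.91 ± 0.41 (SE, adjusted p = 0.0329), and 2 of its 3 cortisol arrays were well above background. The calls of Kcnk10, Galnt15, Prl3a1 and Ctsw were lost without at least 4 of the 6 arrays, at adjusted p of up to 0.173.

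Some signalling proteins outside the immune lists were lowered as well. Grem1, a secreted antagonist of bone morphogenetic proteins, had signals of 13.65, 13.48 and 13.21 in cortisol cells, against 14.39, 14.53 and 14.16 in NT cells (-0.91 ± 0.11 SE, adjusted p = 0.00439), without overlap. Of 20 genes of Wnt, BMP and TGF-beta signalling, 3 were called lower (15%, against 1.08% of all genes) and 0 higher, the others being Inhba, a subunit of activin (-0.79, adjusted p = 0.0228), and Ccn4, a Wnt target (-0.61, adjusted p = 0.00645). The list's median was 0.20, the opposite sign to its called genes. Of 24 growth factors and insulin-axis genes, Hgf (hepatocyte growth factor, -0.72 ± 0.10 SE, adjusted p = 0.00661), Pdgfb (-1.14, adjusted p = 0.00807) and Gdf15 (-0.90, adjusted p = 0.0329) were called lower (12.5%) and 0 higher, with a median of -0.02. The interferon-stimulated genes had a median of -0.36, and 18 of 32 were lower in 3 of 3 pairs against 2627 of 13058 genes, but 2 were called (6.25%), Oasl2 (-0.76, adjusted p = 0.0236) and Xaf1 (-0.71, adjusted p = 0.0238). Another probe of Xaf1 changed by 0.47. Il13ra2, a decoy receptor for interleukin-13, was at 13.25, 13.03 and 13.13 in cortisol cells and at 13.71, 14.06 and 14.42 in NT cells (-0.93 ± 0.18 SE, adjusted p = 0.0216). With 1 array left out the calls of Inhba, Gdf15, Oasl2, Xaf1 and Il13ra2 were lost at adjusted p of up to 0.153, that of Pdgfb at 0.0555, and that of Ccn4 because its change was -0.52 without NT at 48 h, under the fold threshold.

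Among NF-kB genes, the inhibitor Nfkbie rose by 1.18 (adjusted p = 0.0271) and Tnip3, another feedback inhibitor, fell by 0.99 (adjusted p = 0.0372), each with 1 array at 48 h not well above background (NT for Nfkbie, cortisol for Tnip3), out of 22 tested. Among 21 redox genes Gclc, a subunit of the enzyme that starts glutathione synthesis, rose by 0.62 (adjusted p = 0.00807) and Nqo1, a quinone reductase, had signals of 13.08, 12.28 and 12.72 in cortisol cells, against 13.51, 13.50 and 13.54 in NT cells (-0.82 ± 0.17 SE, adjusted p = 0.0312). Among 33 matrix genes Postn (periostin) rose by 0.76 (adjusted p = 0.0165, with no value for cortisol at 48 h), and Loxl2, which cross-links collagen, fell by 1.21 (adjusted p = 0.0216). Col11a1, a fibrillar collagen of that list not well above background on any NT array, was at least 2.06-fold higher (adjusted p = 0.0191). Each of these 7 calls was lost without at least 1 of the arrays. Of the 24 adipogenic genes tested, Fabp4, the fatty acid carrier of adipocytes, was the one called. Its signals were 14.61, 15.01 and 14.89 in cortisol cells, against 14.26, 14.12 and 13.84 in NT cells (0.77 ± 0.13 SE, adjusted p = 0.0148, and up to 0.0813 with 1 array left out). Cebpa (0.45, adjusted p = 0.769) and Slc2a4 (-0.70, adjusted p = 0.177) did not pass. Cebpa was not well above background in NT at 6 h and in both groups at 48 h, nor was Slc2a4 with cortisol at 6 h. None was called of 13 prostaglandin, 12 contractile, 10 complement, 31 cell cycle, 28 hypoxia and glycolysis, 23 ER stress, 18 cholesterol synthesis, 6 serotonin and 13 fibroblast genes. The contractile genes had the lowest median of these (-0.35), and Vegfa, the angiogenic growth factor in the hypoxia list, changed by -0.55, under the fold threshold (adjusted p = 0.0097). The called members of the remaining lists were Pdk4 (lipid handling, 1 of 31), Per1 (clock, 1 of 15), Dusp1 (immediate early, 1 of 25) and Il13ra2 (Toll-like and TNF receptors, 1 of 25), all described above. Over all genes tested, 1.29% were called higher and 1.08% lower.

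**Figure D4:**
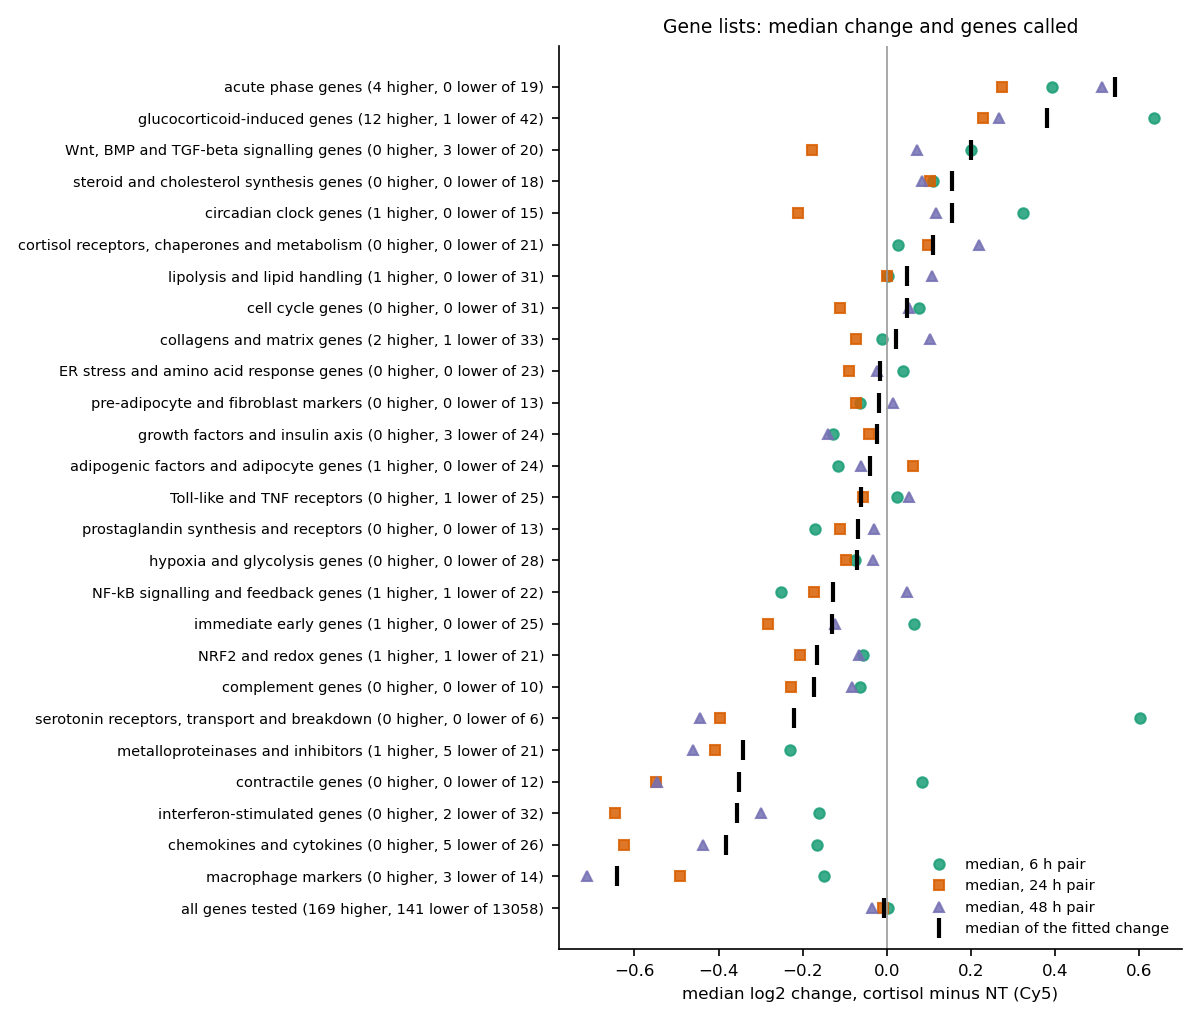
Median log2 change in Cy5 signal, cortisol minus NT (horizontal axis), of 26 gene lists and of all genes tested, with a black tick for the fitted change and a point for each time pair, and in each label the genes called higher and lower of those tested. The ticks of the acute phase list (0.54) and the glucocorticoid-induced list (0.38) lie furthest to the right, those of the macrophage markers (-0.64) and the chemokines and cytokines (-0.38) furthest to the left, and that of all genes near 0.

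The CS and S arrays gave a further set of 3 time-matched pairs that share no array with the cortisol and NT pairs but share their slides and the estimate of spread. Cortisol beside serotonin raised 217 genes and lowered 87 of 13056 (1.66% and 0.666%), but 6 and 3 without the 3 doubted arrays, which leaves the 48 h pair alone. In that Cy5 channel Zbtb16 differed by 2.09, 1.89 and 3.14 between CS and S at 6, 24 and 48 h. Its S signals were 8.19, 8.20 and 7.36, against 7.41, 7.50 and 7.91 in NT cells. Ear1 and Sult1a1, which were not well above background on any NT array, were well above it on the S arrays at 6 and 24 h, at 4.64 and 4.70 (Ear1) and at 5.02 and 4.97 (Sult1a1), but not at 48 h. Slc10a6 was at 11.84, 11.68 and 11.10 in S cells, against 11.72, 11.69 and 10.50 in NT cells. The part of these S arrays in the differences between CS and S was not tested. Of the 169 genes raised by cortisol, 168 were higher and 160 were higher in 3 of 3 pairs in CS than in S, against 43.1% and 17.9% of all genes, and 90 were called, which is 53.3% of the one list and 41.5% of the other. Of the 141 lowered genes, 133 were lower and 126 were lower in 3 of 3 pairs, against 56.9% and 26.1% of all genes, and 56 were called, 39.7% of the one list and 64.4% of the other. The median change between CS and S was 0.79 over the raised genes and -0.60 over the lowered ones. The cortisol calls used a spread that included the CS and S arrays. Genes whose CS and S differences varied less over the times were therefore called more readily. The shares of all genes are thus no like baseline for the counts in 3 of 3 pairs. Between CS and S, Zbtb16 rose by 2.37 (adjusted p = 0.00199), Ear2 rose by 2.79 (adjusted p = 0.00743) and Mmp10 dropped by 2.39 (adjusted p = 0.00866).

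Of the 62 named genes, Ccl3 and Galnt15 had the opposite sign between CS and S. Ccl3 differed by 1.63, 1.18 and -0.38 between CS and S at 6, 24 and 48 h, and by -2.59, -2.40 and -2.59 between cortisol and NT. The difference of these effects had an adjusted p of 0.164, the smallest of all genes. Galnt15 differed by -0.26, 0.43 and 1.24 between CS and S. Slamf1 was not well above background on any CS or S array, so that its sign there was not measured. Over 13056 genes the limma test of a difference between the cortisol effect beside serotonin and without it called 0, and 682 genes had an unadjusted p under 0.05.

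**Figure D5:**
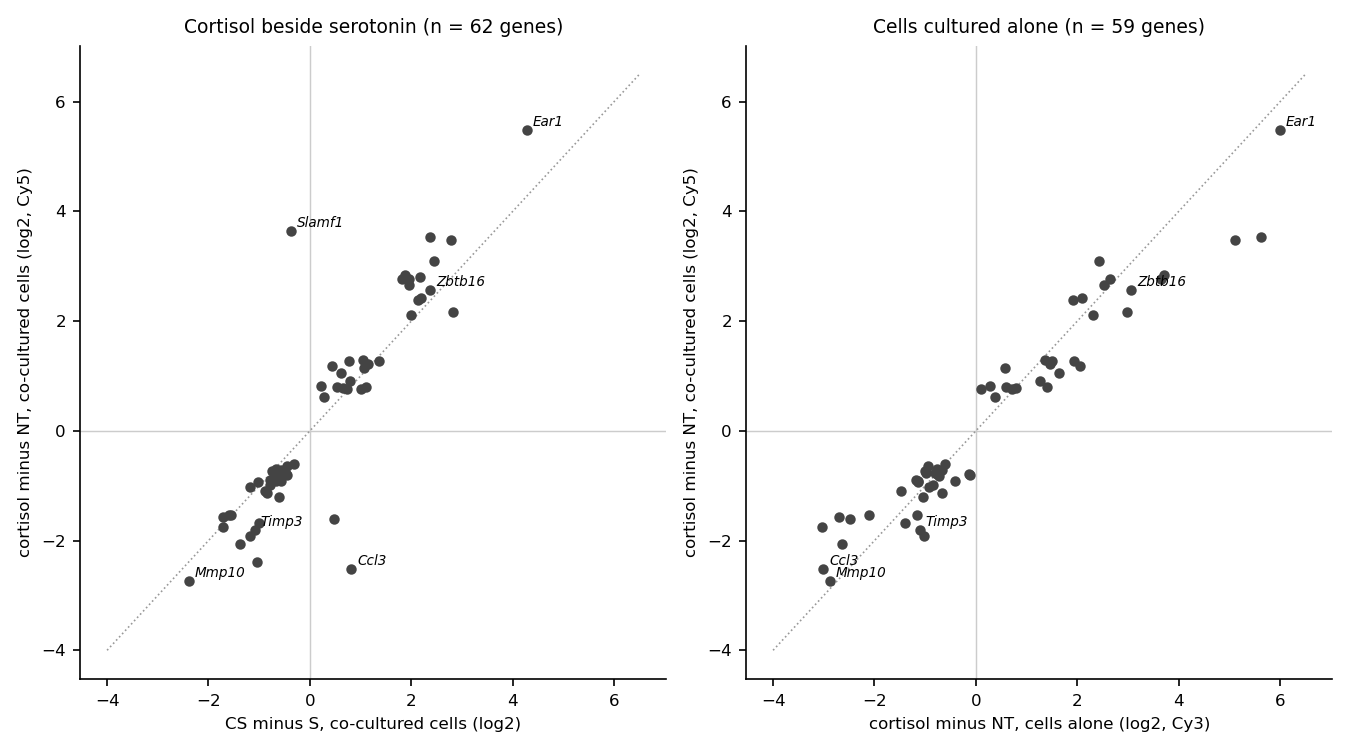
Log2 change with cortisol in co-cultured cells (vertical axes, cortisol minus NT in Cy5) of the called genes named here, against the change of the same genes with cortisol beside serotonin (left, CS minus S, 62 genes) and in cells grown alone (right, cortisol minus NT in Cy3, 59 genes). The dotted line marks equal changes. On the left, Ccl3 (0.81) and Galnt15 (0.47) lie on the other side of 0, as does Slamf1, which was not well above background on any CS or S array, and on the right none of the 59 does.

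The same contrast in cells grown alone addressed whether the macrophages altered the cortisol response. In the Cy3 channel, 41 genes were called higher and 24 lower of 12274 (0.334% and 0.196%), but 90 and 93 on the 6 cortisol and NT arrays alone, and 72 and 68 with each array scaled to its 75th percentile. Leaving out 1 array gave 0 and 0 without C at 6 h, 1 and 0 without C at 24 h, 3 and 0 without C at 48 h, 1 and 0 without NT at 6 h, 1 and 0 without NT at 24 h and 123 and 62 without NT at 48 h. There were 8 and 0 when dim probes were kept and 9 and 2 with the mean of probes. The Cy3 samples of 3 other arrays, which enter the spread, went against their labels. Zbtb16 was at 10.01 and 10.02 in the libraries labelled S at 6 and 24 h and at 8.32 in the library labelled CS at 24 h, while it ran between 10.71 and 10.81 with cortisol and between 7.36 and 7.95 with NT. The cortisol effect in co-cultured cells minus that in cells alone was called for 0 of 13133 genes by limma, with 1236 at an unadjusted p under 0.05, and for 3 higher and 7 lower without NT at 24 h.

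Single genes show how wide that comparison is. Zbtb16 rose by 2.56 in co-cultured cells and differed by 3.07 in cells alone, a difference of -0.50 with a 95% interval from -1.82 to 0.81. Mmp10 changed by -2.74 in co-cultured cells and by -2.88 in cells alone (0.14, from -1.07 to 1.35), and Ccl3 by -2.53 and by -3.02 (0.49, from -0.37 to 1.35). Timp3 changed by -1.81 in co-cultured cells and by -1.11 in cells alone, and its difference of -0.70 had an interval from -1.19 to -0.21 before adjustment (adjusted p = 0.502). Fabp4 changed by 0.77 in co-cultured cells and by 0.11 in cells alone (0.66, from -0.03 to 1.34), and Steap4 by 1.15 and by 0.58 (0.57, from 0.32 to 0.82, adjusted p = 0.502). The spread behind these intervals includes the 3 Cy3 samples that went against their labels, and their part in the width was not tested. Intervals of this width do not show that the response was alike in the presence and absence of macrophages.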

How the data were processed

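Each sample was a dual-colour Agilent mouse array scanned by the authors and quantified with Feature Extraction (version 10.5.1.1 in the submitters' processing notes, 10.7.3.1 per the file headers). The deposited Cy5 and Cy3 processed signal intensities, background-subtracted and dye-normalized by that software, were used. The deposited log10 ratio of the value table equals the scanner ratio to within rounding, with a median of 0 on every array. The deposited intensities were taken to log2 and quantile-normalized over the 12 arrays of a channel. Control spots, outlier spots and spots with a local background over 5 times the array median were left out. Probes well above background on at least 3 of the 6 cortisol and NT arrays were kept. Of 39429 probes, 27508 were named through RefSeq accessions, and the brightest of a gene was used. Groups followed the sample titles. limma 3.58.1 in R 4.3.3 (trend, Benjamini-Hochberg) fitted treatment and time. The numbers pair the samples by time and slide: deviations of same-time cortisol and NT arrays from their group means correlated at 0.45, 0.65 and 0.65, and those of different times at 0.0036 or below. The comparison and the gene lists were chosen with earlier results of these data known, and the comparisons of CS with S, of times and of promoters were added after seeing the data. The rule for naming genes took the 12 highest and 12 lowest called genes that moved the same way in 3 of 3 pairs, without clone names, numbered predicted genes and olfactory or vomeronasal receptors, every called member of the 27 lists, and up to 4 uncalled members of a list by size of change. The 10 genes called for time were named after their values were seen. On simulated data for the cortisol comparison (12539 genes), 76 of 100 genes changed by 1 and 92 of 100 changed by 2 on the log2 scale were recovered, with 3 false calls. For the test of 48 h minus 6 h these were 48 of 100 and 80 of 100, with 5 false calls. Both simulations used independent normal noise of the fitted spread and correct labels. The first used the same change at each time, and the second a change at 48 h alone, with and without serotonin. The first therefore says nothing of effects that vary with time, and neither says anything of doubted labels. The number of arrays limits the precision. Of 56 called genes with another probe above background, 10 had 1 of opposite sign.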

Additional observations from a re-analysis of the deposited data

Results flagged for a closer look

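In co-cultured cells 10 genes were noted because their cortisol effect differed between 48 h and 6 h by a test of the difference itself. On the log2 scale the difference was 4.85 for Serpina3k, 3.58 for Serpina3m, 2.89 for Serpina3n, 2.36 for Tnn, 2.31 for Gdpd2, 2.27 for Orm2, 2.18 for Clca3a2, 2.16 for Orm3, 1.92 for Clca3a1 and 1.83 for Cfhr2. The value of Serpina3k rests on NT and S signals at 48 h that were not well above background, and is at least 3.71 with these at the lowest signal well above background. In each of the 10 the effect was larger at 48 h in the cortisol and NT pairs and in the CS and S pairs. Several of these genes are close copies of each other, the times lay on different slides, and medium and hormones were renewed after 24 h.

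A signal in samples outside the main comparison was noted for Zbtb16. In cells grown alone (Cy3), its log2 signal was 10.01 and 10.02 in the libraries labelled S at 6 and 24 h, above the highest NT value of 7.95, and 8.32 in the library labelled CS at 24 h, below the other CS values (10.77 or more).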

How the results depend on the processing

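The direction of all 62 called genes named was kept under every alternative that tested them, and 13 raised and 11 lowered genes were called in all 18 refits other than those without time as a block and without the 24 h arrays. The comparisons of CS with S, of the cortisol effects with and without serotonin and of times were chosen after seeing the data. Limits are 1 array for each condition and time, time shared with slide, and a spread estimated from 12 arrays of which 3 have a doubted label. The cause of the changes in counts was not tested.

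For cortisol against NT in co-cultured cells, called genes numbered 41 higher and 26 lower with quantile normalization and fit on the 6 arrays, 44 and 29 with the fit alone on them, 27 and 16 without the 3 doubted arrays, 65 and 49 when dim probes were kept, 76 and 44 at a 2-fold threshold and 235 higher and 231 lower with no fold threshold. Counts stayed within 1.5 times of 169 and 141 with joint quantile normalization of both channels, 75th percentile scaling, normexp, the stricter filter and the mean of probes. In cells alone they were 89 higher and 93 lower with normalization over the 6 arrays, 90 and 93 with the fit on them, 86 and 66 without the doubted arrays, 72 and 68 with 75th percentile scaling, 36 and 15 with joint quantile normalization, 29 and 13 with normexp, 8 and 0 with no filter, 9 and 2 with the mean of probes and 17 and 11 at 2-fold. Between CS and S they were 70 higher and 29 lower with no filter, 6 and 3 without the doubted arrays, 78 and 34 at 2-fold and 290 and 160 with no fold threshold. Without the doubted arrays, 1 gene was called higher for the difference of the cortisol effects beside and without serotonin. For 48 h minus 6 h, called genes were 10 and 2 with normexp, 0 and 0 with no filter, 9 and 1 with the mean of probes and 5 and 0 without the doubted arrays.

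Without time as a replicate block, so with the pairing ignored, called genes were 3 higher and 0 lower in co-cultured cells and 0 higher and 0 lower in cells alone. The difference between the cells was called for 0 genes with and without the block.

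Leaving out 1 array or 1 time gave 0 to 209 higher and 0 to 139 lower in co-cultured cells, 0 to 123 higher and 0 to 62 lower in cells alone, 0 to 3 higher and 0 to 7 lower for the difference between them, 0 to 294 higher and 0 to 115 lower for CS against S, 0 to 2 higher and 0 to 0 lower for the difference of the effects beside and without serotonin, and 2 to 53 higher and 0 to 17 lower for 48 h minus 6 h.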
